A study of Mus musculus with 4 samples.

Results

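The genes described here are 49 interferon response and antigen presentation genes of the mouse, a list of symbols drawn up with earlier results of these data known and read across all libraries. All 49 had rows among the 12967 gene symbols analysed, and 47 reached the mean of at least 5 CPM (reads scaled to library size) over the libraries that a gene needed to be compared. Mx1 and Mx2 were under it. The 49 were divided by role into 23 type I interferon induced genes, 5 transcription factor genes (Stat2, Irf1, Irf3, Irf7, Irf9), 4 genes of nucleic acid sensing (Sting1, Cgas, Tbk1, Mavs), 5 receptor and kinase genes (Ifnar1, Ifnar2, Ifngr1, Ifngr2, Jak1) and 12 genes of MHC class I presentation. The induced genes were set against the class I genes in each comparison. The libraries came from 4T1, a mammary carcinoma line of BALB/c mice grown in culture with puromycin. The groups were cells with a stable shRNA against CerS4, a ceramide synthase (shCerS4), precipitated with an antibody to the RNA-binding protein Caprin-1, control shRNA cells (shSCR) precipitated with the same antibody, shCerS4 cells precipitated with IgG, and shSCR cells precipitated with IgG. The study asked how a complex of PD-L1 and Caprin-1 binds mRNA when lipid metabolism is altered, with IgG as the background. Each group was 1 library, which leaves every difference without replicates and without a significance test.

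Type I interferons bind a receptor made of IFNAR1 and IFNAR2, and the kinases JAK1 and TYK2 then activate STAT2, which acts with IRF9 at the interferon-stimulated response element (ISRE) of induced genes. Interferon gamma binds IFNGR1 and IFNGR2 and acts through gamma-activated sites (GAS) and through IRF1. Many genes of class I presentation respond to both. In that route the proteasome cuts proteins, TAP1 and TAP2 carry the peptides into the endoplasmic reticulum, ERAP1 trims them, and tapasin and calreticulin help load them on a heavy chain (H2-K1, H2-D1) paired with beta-2 microglobulin.

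The sequences upstream of the listed start sites are shown first. Motif letters were not used to choose the genes. The induced genes were, however, listed as interferon induced, and interferon acts at the ISRE, so their share of ISRE letters is not independent of the list. The 250 bases before each listed start were taken from RefSeq (build GRCm38.p6), which had an entry for 40 of the 49 genes. Usp18, Dhx58, Mx1, Mx2, Parp9, Parp14, Sting1, Tap2 and Nlrc5 had none. The ISRE was searched as TTTC, any 2 bases and TTTC again, or on the other strand GAAA, any 2 bases and GAAA, and the GAS as TTCNNNGAA, which reads the same on both strands. Overlapping matches were kept. ISRE letters stood before the listed start of 7 of 17 induced genes (41.2%), 1 of 5 factor genes, 1 of 10 class I genes and none of the 8 sensing and receptor genes with an entry. Among all 27025 symbols of the promoter table the share was 3.46%. GAS letters stood before 4 of 17 induced genes, 1 of 5 factor genes, 1 of 5 receptor genes and 1 of 10 class I genes, against 8.13% of all symbols. A match is a run of letters and no evidence of binding. The listed start is not always the outer end of the gene. For Ifit3 both ISRE matches lie inside the gene's span (34583119 to 34588982), for Oas1a both touch it (120896256 to 120907544) and for Ddx60 1 of 2 touches it (61928073 to 62037704).

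The 9 stretches with ISRE letters are given from the strand of the gene, 5′ to 3′, with the matched letters in capitals.
Rsad2 (chr12:26456538-26456597, minus strand): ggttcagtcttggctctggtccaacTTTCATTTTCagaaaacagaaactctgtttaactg
Ifit3 (chr19:34583348-34583441, plus strand): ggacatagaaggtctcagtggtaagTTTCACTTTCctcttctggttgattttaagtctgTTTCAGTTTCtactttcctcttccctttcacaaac
Ddx60 (chr8:61928009-61928086, plus strand): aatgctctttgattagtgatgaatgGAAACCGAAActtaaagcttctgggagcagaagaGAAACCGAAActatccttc
Bst2 (chr8:71537562-71537627, minus strand): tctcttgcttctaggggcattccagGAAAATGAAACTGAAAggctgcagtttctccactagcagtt
Ifit1 (chr19:34640760-34640838, plus strand): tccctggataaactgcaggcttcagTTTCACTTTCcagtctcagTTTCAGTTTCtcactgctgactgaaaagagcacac
Oas1a (chr5:120907526-120907570, minus strand): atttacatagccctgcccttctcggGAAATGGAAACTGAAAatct
Isg15 (chr4:156200850-156200921, minus strand): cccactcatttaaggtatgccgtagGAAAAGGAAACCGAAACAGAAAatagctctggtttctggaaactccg
Stat2 (chr10:128270251-128270310, plus strand): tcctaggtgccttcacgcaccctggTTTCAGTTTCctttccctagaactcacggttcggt
B2m (chr2:122147523-122147582, plus strand): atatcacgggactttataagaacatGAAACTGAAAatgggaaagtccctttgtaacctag
Isg15 had 3 overlapping matches, the nearest of them 56 bases before the start. Ifit3, Ddx60, Bst2, Ifit1 and Oas1a had 2 each, and Rsad2, Stat2 and B2m had 1.

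The libraries held an estimated 24.7 M, 27.0 M, 19.7 M and 19.8 M reads for shCerS4 Caprin-1, shSCR Caprin-1, shCerS4 IgG and shSCR IgG. The members took 0.810%, 0.729%, 0.606% and 0.558% of the reads in the same order. Each bracket below is a 95% counting interval of a log2 ratio, which takes in read sampling alone and leaves out differences that arise between cultures or in amplification. The words past 2-fold mean a ratio of 2-fold or more in either direction with an interval that does not hold 0. Ratios compare shares of library totals. The median log2 ratio of all 10283 compared genes was 0.15 for shCerS4 over shSCR with Caprin-1, 0.10 for the same ratio with IgG, −0.11 for Caprin-1 over IgG in shCerS4 cells and −0.13 in shSCR cells, and under TMM (trimmed mean) scaling it was 0.04, 0.01, 0.05 and 0.03. Ratios within about this distance of 0 therefore have no settled sign. Cers4 had no row among those analysed, so the knockdown was not checked. All 6 epithelial markers fixed for the cell label had rows, with summed levels of 6156, 9870, 4060 and 5739 CPM in the order above. They had no common direction for shCerS4 over shSCR, with 3 above 0 and 3 below in each precipitate. With Caprin-1 they ran from −1.30 (Krt8) to 1.06 (Cdh1). Of 9 leukocyte markers, 7 had no row, among them Ptprc, and Cd68 and Csf1r summed to 15.4, 49.1, 15.7 and 26.0 CPM. Fibroblast markers (4 of 5 with rows) summed to 20.8, 24.6, 44.4 and 66.6 CPM, and the 1 endothelial marker of 4 with a row had 0.666 CPM in shSCR IgG and 0 elsewhere. Their part in the results below was not tested.

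**Figure D1:**
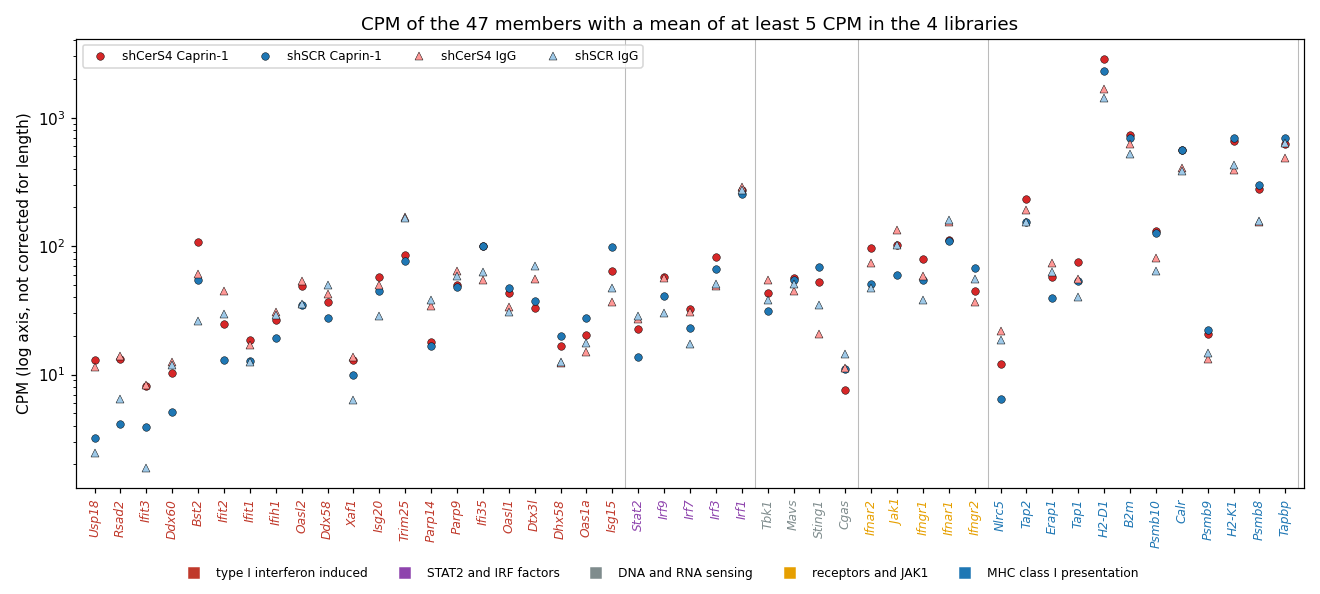
CPM of the 47 compared genes in the 4 libraries (log axis, not corrected for transcript length, so heights are not compared between genes), ordered by role and then by the ratio of shCerS4 over shSCR in the Caprin-1 precipitates. Circles are Caprin-1 and triangles IgG libraries. For Usp18 both shCerS4 libraries, at 13.0 and 11.4 CPM, lie above both shSCR libraries, at 3.18 and 2.47 CPM, whereas for Psmb8 both Caprin-1 libraries lie above both IgG libraries.

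The first comparison, the study's main one, set the Caprin-1 precipitates of shCerS4 cells against those of shSCR cells. Usp18, Rsad2 and Ifit3 were higher past 2-fold in shCerS4 cells, and no member was lower past 2-fold. That is 3 of 47 members, a share near the background of 6.25% of all genes higher past 2-fold (4.95% were lower). Intervals lay above 0 for 28 members and below 0 for 11 (51% and 30.2% of all genes). The median of the 47 log2 ratios was 0.32, and 26 of them were above the median of all genes. In the IgG precipitates 5 members were higher past 2-fold, Usp18, Rsad2, Ifit3, Bst2 and Xaf1, and none was lower, against 5.69% and 5.34% of all genes. Intervals with IgG lay above 0 for 25 members and below 0 for 11, against 46.9% and 32.2% of all genes. The IgG median was 0.15, and 24 of 47 lay above the median of all genes. Under TMM scaling the counts of all genes past 2-fold were 484 higher and 590 lower with Caprin-1, in place of 643 and 509, and 447 higher and 645 lower with IgG, in place of 585 and 549. With Caprin-1 Ifit3 was then not past 2-fold, and the 5 members of the IgG comparison were called as before. Among the 47 members, the sign of a small ratio turned under TMM scaling for B2m, Calr, Ifnar1, Irf1, Mavs, Parp9 and Psmb10 with Caprin-1 and for Calr, Ddx60, Ifih1, Irf1 and Trim25 with IgG.

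Usp18 encodes the protease that removes ISG15 from proteins and dampens the type I receptor. It had 13.0 CPM (321 reads) in shCerS4 Caprin-1 and 3.18 CPM (86 reads) in shSCR Caprin-1, a log2 ratio of 2.03 [1.68, 2.39]. With IgG it had 11.4 CPM in shCerS4 and 2.47 CPM in shSCR cells (225 and 49 reads), a log2 ratio of 2.20 [1.76, 2.69]. Both shCerS4 libraries were thus above both shSCR libraries, 4.07-fold within Caprin-1 and 4.59-fold within IgG. Rsad2, which encodes the antiviral enzyme viperin, had 13.2 CPM in shCerS4 Caprin-1 and 4.11 CPM in shSCR Caprin-1, a log2 ratio of 1.68 [1.37, 2.01]. The IgG libraries held 13.9 CPM in shCerS4 and 6.40 CPM in shSCR cells, a log2 ratio of 1.11 [0.81, 1.43]. The shCerS4 libraries again stood above the shSCR libraries, and the shSCR Caprin-1 library was the lowest.

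Ifit1, Ifit2 and Ifit3 lie on chromosome 19 and encode proteins with tetratricopeptide repeats that bind RNA or one another. Ifit3 had 8.13 CPM in shCerS4 Caprin-1 and 3.92 CPM in shSCR Caprin-1, a log2 ratio of 1.05 [0.71, 1.41]. The IgG libraries held 8.25 CPM in shCerS4 and 1.89 CPM in shSCR cells, a log2 ratio of 2.11 [1.62, 2.70]. Both shCerS4 libraries stood at nearly the same level, while in shSCR cells the IgG library, with 37 estimated reads, was lower than the Caprin-1 library with 106. Ifit3b is a close copy, so reads of Ifit3 may be divided between them. Ifit2 had 24.7 CPM in shCerS4 Caprin-1 and 13.1 CPM in shSCR Caprin-1, and 45.0 and 29.9 CPM in the IgG libraries of shCerS4 and shSCR cells. Its log2 ratios, 0.92 [0.73, 1.11] and 0.59 [0.44, 0.75], were under 2-fold. Ifit1 stood at 0.52 [0.32, 0.73] with Caprin-1 and 0.44 [0.20, 0.69] with IgG, so the 3 neighbours had ratios in the same direction but of different size.

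Bst2 encodes tetherin, which holds budding virus at the cell surface. It had 107 CPM in shCerS4 Caprin-1 and 54.9 CPM in shSCR Caprin-1, just under 2-fold at 0.97 [0.87, 1.06]. The IgG libraries held 60.7 CPM in shCerS4 and 26.1 CPM in shSCR cells, past 2-fold at 1.22 [1.07, 1.37]. Between 517 and 2643 estimated reads stood behind each value. Xaf1, which encodes a pro-apoptotic partner of XIAP, had 13.0 CPM in shCerS4 Caprin-1 and 9.92 CPM in shSCR Caprin-1, a log2 ratio of 0.39 [0.15, 0.63]. With IgG it had 13.7 CPM in shCerS4 and 6.35 CPM in shSCR cells, a log2 ratio of 1.10 [0.80, 1.42]. For Xaf1 the shSCR IgG library was the low one.

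Of the 21 compared induced genes, 13 had an interval above 0 with Caprin-1 and 5 had one below, against 51% and 30.2% of all genes. With IgG 10 lay above and 5 below, against 46.9% and 32.2% of all genes, so the share above 0 was near the background there. Isg15, the ubiquitin-like modifier that USP18 removes, had 64.4 CPM in shCerS4 Caprin-1 and 99.1 CPM in shSCR Caprin-1, a log2 ratio of −0.62 [−0.71, −0.53]. The IgG libraries held 36.5 CPM in shCerS4 and 47.2 CPM in shSCR cells, a log2 ratio of −0.37 [−0.51, −0.23]. It was therefore lower in shCerS4 cells in both precipitates, under 2-fold. Oas1a, a synthase of the 2′-5′ oligoadenylates that activate RNase L, had 20.3 CPM in shCerS4 Caprin-1 against 27.5 CPM in shSCR Caprin-1, and 15.1 CPM in shCerS4 IgG against 17.8 CPM in shSCR IgG. Its log2 ratios were −0.44 [−0.61, −0.28] and −0.24 [−0.47, −0.01]. Oas1a has close copies in a gene cluster on chromosome 5, and its reads may be divided among them. Oasl1 and Oasl2, from the same chromosome and with related proteins, stood at −0.12 and 0.48 with Caprin-1 and at 0.15 and 0.61 with IgG.

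The remaining induced genes had log2 ratios from −0.25 (Dhx58) to 1.00 (Ddx60) in the Caprin-1 precipitates. Ddx60, a helicase gene, had 10.2 CPM in shCerS4 Caprin-1 and 5.11 CPM in shSCR Caprin-1, but 12.5 and 11.9 CPM in the IgG libraries of shCerS4 and shSCR cells. Its shSCR Caprin-1 library was the low one and the other three were close, with log2 ratios of 1.00 [0.70, 1.31], which fell just short of 2-fold, and 0.08 [−0.19, 0.34]. The cytosolic RNA sensor genes Ifih1 (MDA5) and Ddx58 (RIG-I) stood at 0.48 and 0.42 with Caprin-1 and at 0.10 and −0.24 with IgG, and Dhx58 (LGP2) at −0.25 and −0.04. The ubiquitin ligase gene Trim25 had 85.6 and 76.1 CPM in the Caprin-1 libraries of shCerS4 and shSCR cells and 169.7 and 167 CPM in their IgG libraries. Parp14, an ADP-ribosyltransferase gene, had 18.1, 16.7, 34.3 and 38.1 CPM in the same order. In both genes the Caprin-1 libraries lay below the IgG libraries. Ifi35, whose protein binds NMI, had 99.4, 101, 54.2 and 63.0 CPM in that order, with the Caprin-1 libraries above. Parp9 and Dtx3l, whose proteins act as a complex, stood at 0.05 and −0.20 with Caprin-1 and 0.15 and −0.33 with IgG. These genes overlap by 558 bases, and the strand setting of the counting was not given in the sources used here, so their reads near the overlap cannot be told apart.

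Mx1 and Mx2, the dynamin-like antiviral genes, were measured too low to be compared. Mx2 had 1.15 CPM in shCerS4 Caprin-1, 0.334 in shSCR Caprin-1, 1.98 in shCerS4 IgG and 0.335 in shSCR IgG, or 28, 9, 39 and 7 estimated reads. Mx1 had 11 estimated reads in shCerS4 IgG and 0 in the other three libraries, where 3 reads would have been 0.122, 0.111 and 0.151 CPM for shCerS4 Caprin-1, shSCR Caprin-1 and shSCR IgG. The gene reference annotates both as transcribed pseudogenes in its C57BL/6J genome.

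**Figure D2:**
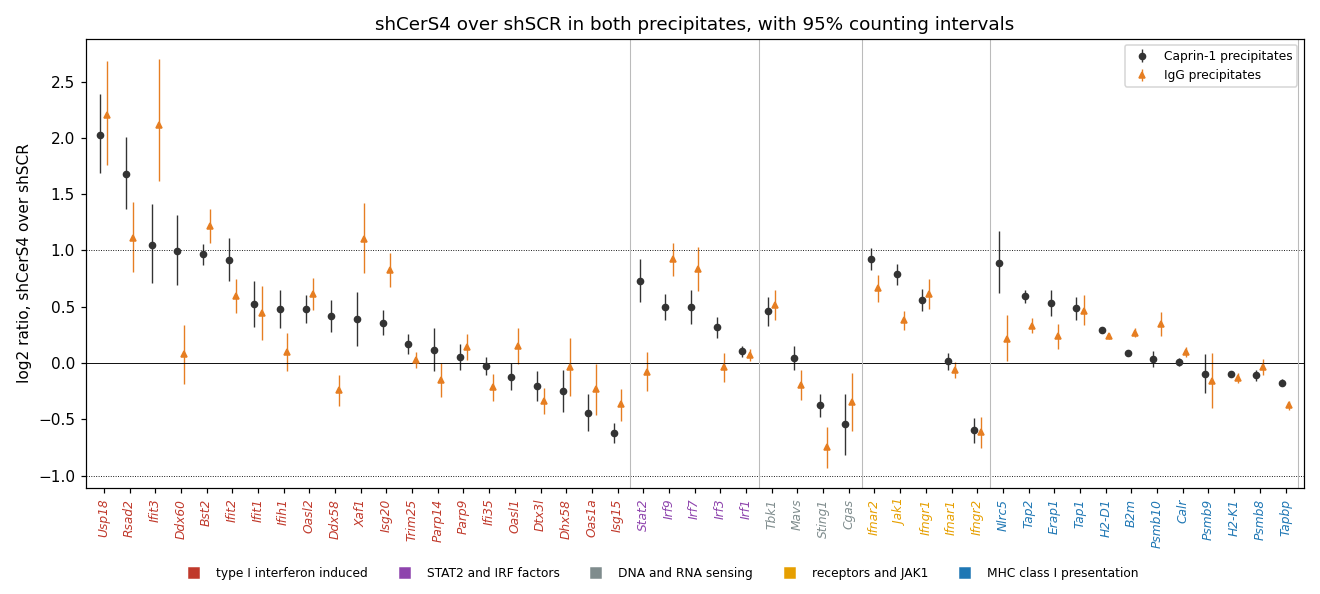
Log2 ratio of shCerS4 over shSCR for the 47 compared genes in the Caprin-1 precipitates (black circles) and the IgG precipitates (orange triangles), with 95% counting intervals, ordered by role and by the Caprin-1 ratio. Dotted lines mark 2-fold. Usp18, Rsad2 and Ifit3 lie above the upper line in both precipitates, and no gene lies below the lower line.

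The ISRE letters shown above did not sort the induced genes by direction. The 7 induced genes that carry them ranged from −0.62 (Isg15) to 1.68 (Rsad2) in the Caprin-1 precipitates, with a median of 0.97, and from −0.37 to 2.11 with IgG, with a median of 0.44. The 10 compared induced genes with a promoter entry but without the letters ranged from −0.20 (Dtx3l) to 0.92 (Ifit2), with a median of 0.37, and with IgG had a median of 0.12. Past 2-fold were 2 of the 7 and none of the 10 with Caprin-1, and 3 of the 7 and 1 of the 10 with IgG. Of all genes, 6.25% were higher past 2-fold with Caprin-1 and 5.69% with IgG. Usp18, past 2-fold in both precipitates, had no promoter entry and is in neither set. Isg15, with 3 matches, and Oas1a, with 2, were the lowest induced genes in the Caprin-1 precipitates. These values describe few genes, and the difference was not tested.

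Among the factor genes, Stat2, Irf9 and Irf7 had the higher ratios with Caprin-1, while with IgG Stat2 was the lowest of the 5. Stat2 had 22.8 CPM in shCerS4 Caprin-1 and 13.7 CPM in shSCR Caprin-1, a log2 ratio of 0.73 [0.54, 0.92]. With IgG it had 27.1 CPM in shCerS4 and 28.6 CPM in shSCR cells, a log2 ratio of −0.08 [−0.25, 0.10]. As for Ddx60, the shSCR Caprin-1 library was low and the other three were close. Irf9, the DNA-binding partner of STAT2, stood at 0.50 [0.38, 0.61] with Caprin-1 and 0.92 [0.78, 1.07] with IgG. Irf7, the inducible amplifier of interferon transcription, stood at 0.50 [0.34, 0.65] and 0.83 [0.64, 1.03]. Irf7 is the sum of 3 rows, and its most abundant row stood at 0.49 with Caprin-1 but 0.02 with IgG. Another row stood at 0.70 and 2.91, with 10.9 CPM in shCerS4 IgG and 1.43 CPM in shSCR IgG. The Irf7 ratio with IgG therefore does not describe its main row. Irf1 had 272 CPM in shCerS4 Caprin-1, 254 in shSCR Caprin-1, 286 in shCerS4 IgG and 273 in shSCR IgG, with log2 ratios of 0.10 [0.05, 0.15] and 0.07 [0.02, 0.13]. All 4 libraries were thus close for Irf1. The constitutive factor gene Irf3 had 82.2 and 66.0 CPM in the Caprin-1 libraries of shCerS4 and shSCR cells, and 49.2 and 50.5 CPM in their IgG libraries, with log2 ratios of 0.32 [0.22, 0.41] and −0.04 [−0.17, 0.09].

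The stretch with GAS letters before Irf1, a textbook target of interferon gamma, is shown because its gene was nearly level across the libraries.
Irf1 (chr11:53769899-53769957, plus strand): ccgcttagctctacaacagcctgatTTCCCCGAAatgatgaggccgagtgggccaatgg

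Genes of nucleic acid sensing had no common direction. Sting1, the adaptor that answers cyclic dinucleotides, had 52.9 CPM in shCerS4 Caprin-1 and 68.7 CPM in shSCR Caprin-1, a log2 ratio of −0.38 [−0.48, −0.27]. With IgG it had 20.6 CPM in shCerS4 and 34.6 CPM in shSCR cells, a log2 ratio of −0.75 [−0.93, −0.57]. Both shCerS4 libraries lay below their shSCR counterparts, and each Caprin-1 library was above the IgG library of the same cells. Cgas, the DNA sensor that makes the cyclic dinucleotide, was also lower, at −0.54 and −0.35. The kinase gene Tbk1 was higher, at 0.46 and 0.52. Mavs, the mitochondrial adaptor of RIG-I and MDA5, had 56.7 and 54.8 CPM in the Caprin-1 libraries of shCerS4 and shSCR cells and 44.6 and 51.1 CPM in their IgG libraries, with log2 ratios of 0.05 and −0.20.

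The chains of each receptor differed from one another. Ifnar1 had 112 CPM in shCerS4 Caprin-1, 110.5 in shSCR Caprin-1, 154 in shCerS4 IgG and 161 in shSCR IgG, with log2 ratios of 0.02 [−0.06, 0.09] and −0.06 [−0.14, 0.01]. Its partner Ifnar2 stood at 0.92 [0.83, 1.02] and 0.66 [0.54, 0.78], so the intervals of the partners did not meet in either precipitate. Ifngr1 stood at 0.56 [0.46, 0.66] and 0.61 [0.48, 0.75], and Ifngr2 at −0.60 [−0.71, −0.49] and −0.61 [−0.75, −0.48], in opposite directions in both precipitates. Ifnar1, Ifnar2 and Ifngr2 lie near one another on chromosome 16, between 91372783 and 91564007 (GRCm38). Jak1, the kinase that both receptors use, had 103 CPM in shCerS4 Caprin-1 and 59.7 CPM in shSCR Caprin-1, and 134 and 103 CPM in the IgG libraries of shCerS4 and shSCR cells. Its log2 ratios were 0.79 [0.70, 0.88] and 0.38 [0.30, 0.46].

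None of the 12 class I presentation genes was past 2-fold between the cell lines in either precipitate. Of all genes, 11.2% were past 2-fold in either direction with Caprin-1 and 11% with IgG, so none of 12 is near the background. The log2 ratios of the 12 ran from −0.18 to 0.89 with Caprin-1 and from −0.38 to 0.47 with IgG. Their medians were 0.06 and 0.23. The Caprin-1 median was below 0 under TMM scaling, at −0.04, and 5 of the 12 genes lay above the median of all genes with Caprin-1 and 7 with IgG. The heavy chain gene H2-D1 had 2850.2 CPM in shCerS4 Caprin-1, 2323 in shSCR Caprin-1, 1676 in shCerS4 IgG and 1419.7 in shSCR IgG, with log2 ratios of 0.30 [0.28, 0.31] and 0.24 [0.22, 0.26]. H2-K1 had 655, 701, 389.9 and 427 CPM in the same order, with log2 ratios of −0.10 [−0.13, −0.07] and −0.13 [−0.18, −0.09]. The heavy chain genes are polymorphic and have near-identical copies. BALB/c carries another haplotype than the C57BL/6J reference, so reads may be divided among the copies with error. B2m, the shared light chain, had 738 and 695 CPM in the Caprin-1 libraries of shCerS4 and shSCR cells and 628 and 521 CPM in their IgG libraries, with log2 ratios of 0.09 [0.06, 0.12] and 0.27 [0.23, 0.31].

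The peptide transporter genes had positive ratios. Tap1 had 74.7 CPM in shCerS4 Caprin-1, 53.3 in shSCR Caprin-1, 55.8 in shCerS4 IgG and 40.4 in shSCR IgG, with log2 ratios of 0.49 [0.39, 0.59] and 0.47 [0.33, 0.60]. Tap2 had 235 and 155 CPM in the Caprin-1 libraries of shCerS4 and shSCR cells and 193 and 153 CPM in their IgG libraries, with log2 ratios of 0.59 [0.54, 0.65] and 0.33 [0.26, 0.40]. Both subunit genes were higher in shCerS4 cells in both precipitates, under 2-fold. Tapbp, which encodes tapasin, had 619 CPM in shCerS4 Caprin-1, 699 in shSCR Caprin-1, 489 in shCerS4 IgG and 635 in shSCR IgG. At −0.18 [−0.21, −0.15] and −0.38 [−0.42, −0.34] it was the lowest class I gene in both precipitates. Tapbp overlaps Gm19412, a long noncoding RNA gene with a row of its own, by 1019 bases. The chaperone gene Calr had 563 and 559 CPM with Caprin-1 and 408 and 382 CPM with IgG in shCerS4 and shSCR cells, ratios of 0.01 and 0.10. Erap1 had 57.3 and 39.5 CPM with Caprin-1 and 74.0 and 62.8 CPM with IgG, ratios of 0.54 and 0.24. It overlaps Cast by 840 bases.

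The immunoproteasome subunits, which replace the constitutive catalytic subunits after interferon, had ratios within 0.16 of 0 except for Psmb10 with IgG. Psmb8 had 277 CPM in shCerS4 Caprin-1, 298 in shSCR Caprin-1, 153 in shCerS4 IgG and 157 in shSCR IgG, with log2 ratios of −0.11 [−0.16, −0.06] and −0.04 [−0.11, 0.04]. Psmb9 had 20.8, 22.2, 13.2 and 14.7 CPM in the same order, with log2 ratios of −0.09 [−0.27, 0.08] and −0.16 [−0.40, 0.09]. Psmb10 had 130.3, 127, 81.5 and 64.2 CPM, with log2 ratios of 0.03 [−0.04, 0.10] and 0.34 [0.24, 0.45]. Nlrc5, the transactivator of class I genes, had 12.1 CPM in shCerS4 Caprin-1, 6.51 in shSCR Caprin-1, 21.8 in shCerS4 IgG and 18.7 in shSCR IgG. Its log2 ratios were 0.89 [0.62, 1.17] and 0.22 [0.01, 0.42]. The lowest library was shSCR Caprin-1, and both Caprin-1 libraries lay below both IgG libraries.

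Of the 12 class I genes 7 lie on chromosome 17, in the order Tapbp, H2-K1, Psmb9, Tap1, Psmb8, Tap2 and H2-D1 (from 33919478 to 35267497, GRCm38). Psmb9 (34182030 to 34187330, minus strand) and Tap1 (34187556 to 34197225, plus strand) are read away from each other across 225 bases, which are given in full because the pair had unequal ratios.
Tap1 and Psmb9 (chr17:34187331-34187555, plus strand): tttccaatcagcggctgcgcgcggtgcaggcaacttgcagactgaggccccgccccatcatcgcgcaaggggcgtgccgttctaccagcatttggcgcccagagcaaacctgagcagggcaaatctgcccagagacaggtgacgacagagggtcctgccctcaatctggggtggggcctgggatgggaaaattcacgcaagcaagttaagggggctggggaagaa
Neither the ISRE nor the GAS letters occur in it. Tap1 was higher in shCerS4 cells in both precipitates (0.49 and 0.47), while the intervals of Psmb9 held 0 in both (−0.09 and −0.16), and the intervals of the pair did not meet. Levels at the promoter were not measured, and the ratios are of precipitated mRNA.

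**Figure D3:**
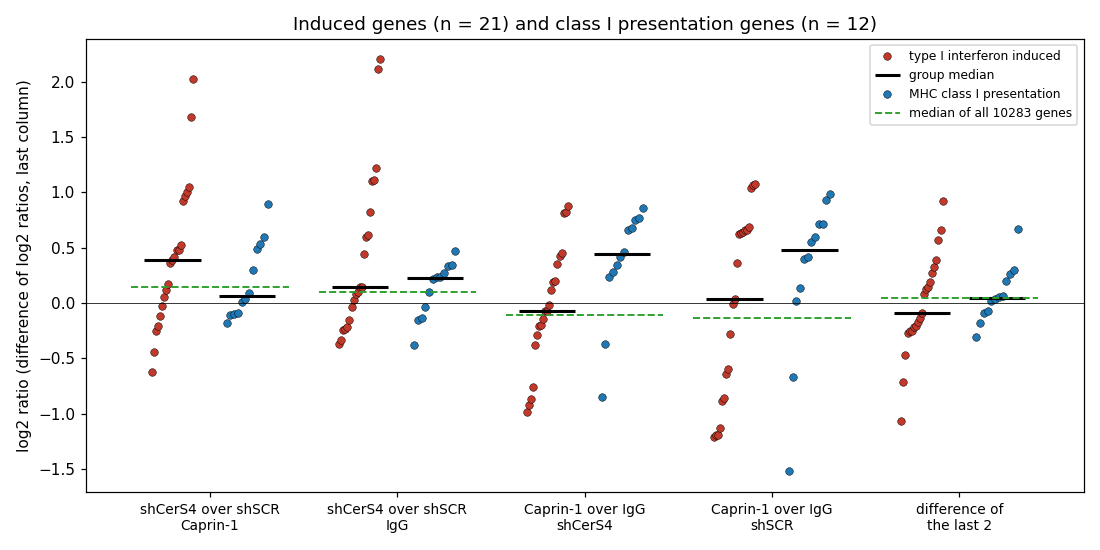
Log2 ratios of the 21 compared induced genes (red) and the 12 class I presentation genes (blue) in the 5 comparisons, with group medians (black bars) and the median of all 10283 genes (dashed). Each point is a gene. In the Caprin-1 over IgG columns the class I medians, 0.44 and 0.48, lie above the induced medians, −0.07 and 0.04.

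Set against each other, the induced genes had the wider range and the higher Caprin-1 median between cell lines. Their medians were 0.39 with Caprin-1 and 0.15 with IgG, over 21 compared genes, against the class I medians of 0.06 and 0.23. The difference of medians, induced minus class I, was therefore 0.33 with Caprin-1 and −0.08 with IgG, opposite in sign. Among the 47 members the shCerS4 over shSCR ratio had a Spearman correlation with genomic span of 0.36 with Caprin-1 and 0.01 with IgG. Over all genes these were 0.14 and −0.02. The part of span in the difference of medians was not tested. Summed over the 23 induced genes the level was 808 CPM in shCerS4 Caprin-1, 707 in shSCR Caprin-1, 837 in shCerS4 IgG and 744 in shSCR IgG. Summed over the class I genes it was 6231, 5679, 4183 and 3896 CPM in the same order, of which H2-D1 gave 2850.2, 2323, 1676 and 1419.7 CPM. Across the 47 members, which share their libraries and are not replicates, the ratios with Caprin-1 and with IgG correlated at 0.79 (Pearson) and 0.77 (Spearman). Over all genes these were 0.89 and 0.83. Of the 47, 30 had both intervals on the same side of 0 and 1, Ddx58, on opposite sides. The matching shares of all genes were not counted.

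Related genes outside the list, taken from wider lists of both pathways, were read in the same way. Of 59 compared genes of the interferon pathway, 3 were higher past 2-fold with Caprin-1, Tdrd7 (1.33), Ifi44 (1.29) and Gbp7 (1.09), and none was lower, with a median of 0.13 (6.25% of all genes were higher). In the IgG precipitates 4 were higher and none lower, with a median of 0.13 (5.69% of all genes were higher). Of 21 compared genes of antigen presentation, 3 were higher past 2-fold with Caprin-1 and none lower, beside the same 6.25%. They were H2-DMa (1.24), a peptide editor of class II molecules, the non-classical class I gene H2-T23 (1.05) and the class II invariant chain gene Cd74 (1.04). Cd74 had 77.7 CPM in shCerS4 Caprin-1, 37.8 in shSCR Caprin-1, 60.4 in shCerS4 IgG and 27.5 in shSCR IgG. The leukocyte marker Cd68 was lower in shCerS4 cells, with 14.6, 49.1, 14.9 and 25.9 CPM in the same order. Csf1r, the other leukocyte marker with a row, was higher in shCerS4 cells, with 0.811, 0, 0.712 and 0.0504 CPM in that order. It rested on 20, 0, 14 and 1 estimated reads, too few to be compared, so the leukocyte markers had no common direction. With IgG 3 of the 21 were higher and none lower, beside 5.69% of all genes, and the medians of the 21 were 0.08 with Caprin-1 and 0.24 with IgG. None of the 9 interferon ligand genes looked up, Ifnb1 and Ifng among them, had a row among those analysed.

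Caprin-1 was next set against IgG within each cell line. In shCerS4 cells Sting1 was the only member higher past 2-fold and none was lower, against 0.934% and 8.02% of all genes (8.96% in either direction). In shSCR cells Isg15, Ifit3 and Bst2 were higher, and Ifit2, Ddx60, Parp14, Trim25, Stat2 and Nlrc5 were lower, 3 and 6 of 47 against 1.69% and 13% of all genes. The medians of the 47 log2 ratios were 0.19 in shCerS4 and 0.27 in shSCR cells, with 31 members above the median of all genes in each. Intervals lay above 0 for 23 members in shCerS4 cells, against 32.5% of all genes, and for 25 members in shSCR cells, against 34.2%. They lay below 0 for 17 members in each, against 47.3% and 49% of all genes in shCerS4 and shSCR cells. Intervals above 0 in both cell lines were found for 21 members, and below 0 in both for 16. The matching shares of all genes were not counted. The Caprin-1 over IgG ratios of the cell lines correlated at 0.87 (Pearson) among the members and at 0.88 over all genes, so agreement between the lines was general. Under TMM scaling 3 members were higher in shCerS4 cells (Ifi35, Sting1, Psmb8) and none lower. In shSCR cells 6 were then higher (Isg15, Ifit3, Bst2, Sting1, Psmb8, Psmb10) and 4 lower (Ifit2, Ddx60, Parp14, Nlrc5). With 5 reads added in place of 0.5, Ifit3 was no longer past 2-fold in shSCR cells. Over all genes the higher and lower counts under TMM scaling were 257 and 515 in shCerS4 cells, in place of 96 and 825, and 426 and 941 in shSCR cells, in place of 174 and 1337.

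The class I genes lay mostly on the Caprin-1 side. In both cell lines 10 of 12 had a ratio above the median of all genes, and Erap1 and Nlrc5 were below. Psmb8 stood at 0.85 [0.79, 0.92] in shCerS4 and 0.93 [0.87, 0.99] in shSCR cells, H2-D1 at 0.77 [0.75, 0.79] and 0.71 [0.69, 0.73], H2-K1 at 0.75 [0.71, 0.79] and 0.71 [0.68, 0.75], and Psmb10 at 0.68 [0.59, 0.76] and 0.99 [0.90, 1.08]. B2m stood at 0.23 [0.20, 0.27] and 0.41 [0.38, 0.45], and Tap2 was at 0.28 and 0.02. Erap1 stood at −0.37 [−0.48, −0.26] and −0.67 [−0.79, −0.55] and Nlrc5 at −0.85 [−1.07, −0.63] and −1.52 [−1.79, −1.26]. The class I medians were 0.44 in shCerS4 and 0.48 in shSCR cells.

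**Figure D4:**
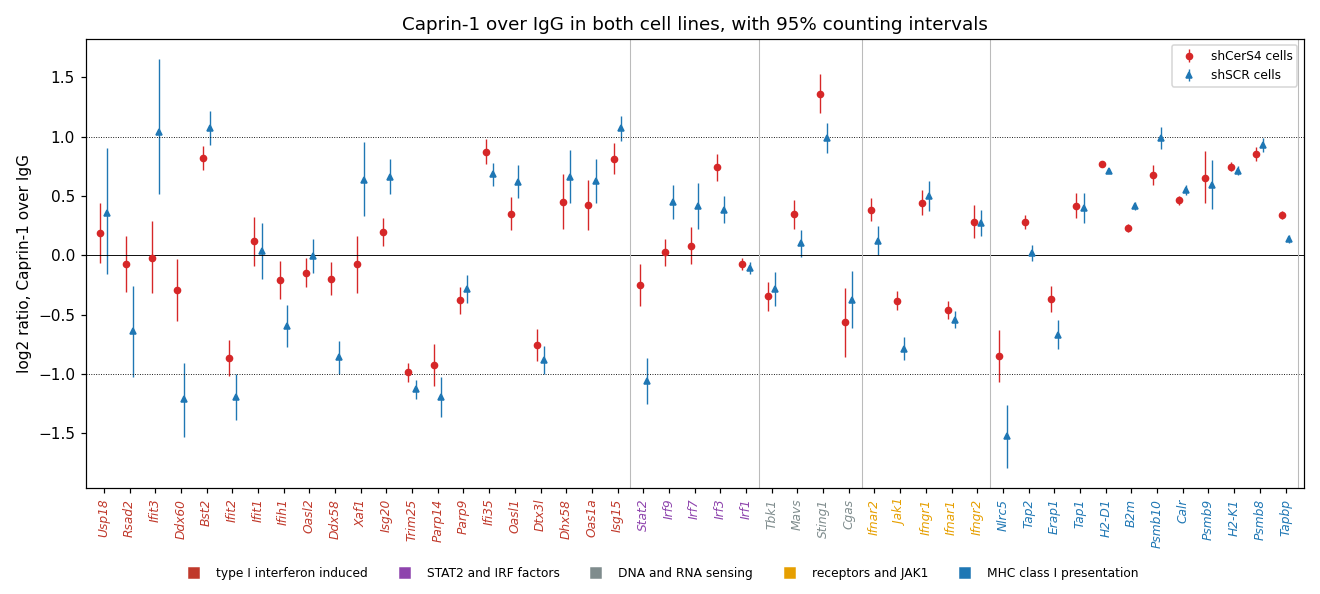
Log2 ratio of Caprin-1 over IgG for the 47 compared genes in shCerS4 cells (red circles) and shSCR cells (blue triangles), with 95% counting intervals, ordered by role and by the ratio of shCerS4 over shSCR in the Caprin-1 precipitates. Dotted lines mark 2-fold. Sting1 lies above the upper line in shCerS4 cells and Nlrc5 is the lowest member in shSCR cells.

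The induced genes fell on both sides. Their medians were −0.07 in shCerS4 and 0.04 in shSCR cells, the first of which lay above 0 under TMM scaling, at 0.09. Bst2 stood at 0.82 [0.72, 0.92] and 1.07 [0.93, 1.22] in shCerS4 and shSCR cells, Isg15 at 0.82 [0.69, 0.95] and 1.07 [0.96, 1.18], and Ifi35 at 0.87 [0.77, 0.98] and 0.68 [0.59, 0.78]. Trim25 stood at −0.99 [−1.07, −0.91] and −1.13 [−1.21, −1.05], Parp14 at −0.92 [−1.10, −0.75] and −1.19 [−1.36, −1.02], Ifit2 at −0.87 and −1.19 and Ddx60 at −0.29 [−0.55, −0.03] and −1.21 [−1.53, −0.91]. Ifit2 is the sum of 2 rows of unequal ratio. In shCerS4 and shSCR cells 1 of them stood at −1.13 and −1.78 and the other at −0.43 and −0.24. Usp18 and Rsad2, the members with the highest shCerS4 over shSCR ratios in the Caprin-1 precipitates, had ratios whose intervals held 0 in shCerS4 cells. Usp18 stood at 0.19 [−0.06, 0.44] in shCerS4 and 0.36 [−0.16, 0.90] in shSCR cells. Rsad2 stood at −0.07 [−0.31, 0.17] in shCerS4 cells, above 0 under TMM scaling, and at −0.64 [−1.02, −0.26] in shSCR cells. Sting1 was the highest member in shCerS4 cells at 1.36 [1.20, 1.53], with 0.99 [0.86, 1.12] in shSCR cells. Induced minus class I, the difference of medians was −0.51 in shCerS4 and −0.45 in shSCR cells, the same sign in both. The cell lines share no library, but their ratios correlated over all genes as given above, so the shared sign is not particular to these groups.

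The side a member took went with the genomic span of its gene. Among the 47, the Spearman correlation of the Caprin-1 over IgG log2 ratio with span was −0.73 in shCerS4 and −0.81 in shSCR cells. Over all 10274 compared genes with a span it was −0.48 and −0.54. All 8 members under 5 kb, among them Isg15, Bst2, Psmb8 and Psmb10, had a ratio above 0 in both cell lines, with medians of 0.76 in shCerS4 and 0.82 in shSCR cells. Of the 24 members of 5 to 20 kb, 17 were above 0 in shCerS4 and 19 in shSCR cells, with medians of 0.28 and 0.41. Of the 15 members of 20 kb and over, 2 were above 0 in each cell line, with medians of −0.37 and −0.79. All genes in the same span classes had medians of 0.26, 0.09 and −0.34 in shCerS4 cells and 0.38, 0.13 and −0.44 in shSCR cells. Of all 1174 genes under 5 kb, 872 were above 0 in shCerS4 and 945 in shSCR cells. Of 3437 genes of 5 to 20 kb, 2025 and 2037 were above 0. Of 5663 genes of 20 kb and over, 1504 and 1394 were, so the direction by span was general. Of the 8 members under 5 kb, 5 are class I genes (H2-K1, H2-D1, Calr, Psmb8, Psmb10), and the part of span in the contrast with the induced genes was not tested. Span is the length of the gene on the chromosome with introns, and transcript length was not used here.

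**Figure D5:**
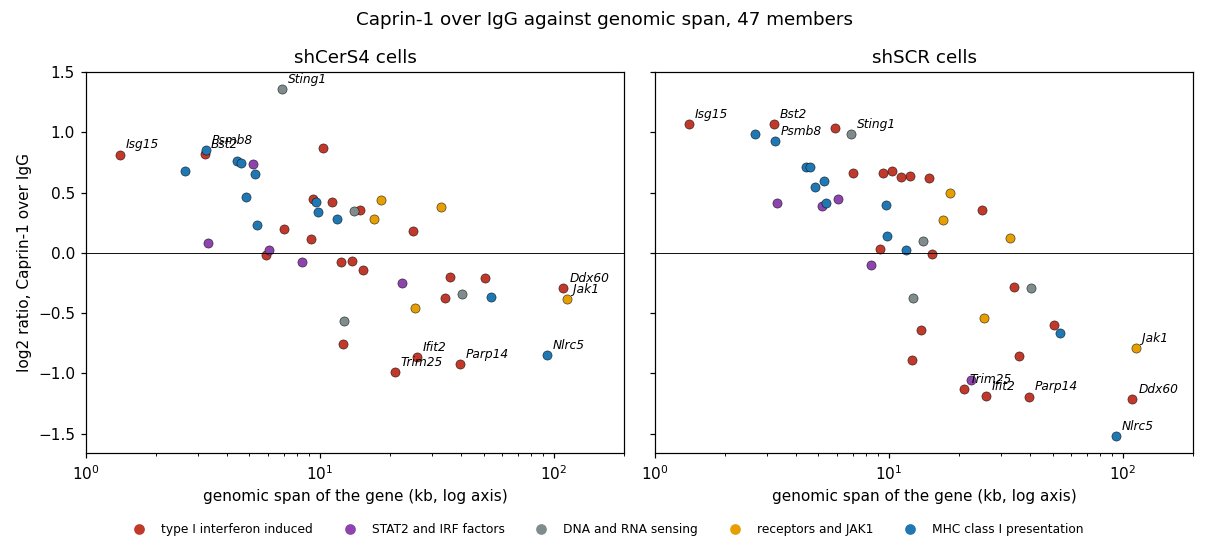
Log2 ratio of Caprin-1 over IgG against genomic span (kb, log axis) for the 47 compared genes in shCerS4 cells (left) and shSCR cells (right), coloured by role. The shortest genes, such as Isg15, lie above 0 in both panels, and Nlrc5, Ddx60 and Jak1, the longest, lie below 0 in both.

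The last comparison subtracted the shSCR log2 ratio of Caprin-1 over IgG, gene by gene, so that the shCerS4 ratio stands first (shCerS4 minus shSCR). Only Ifit3 was past 2-fold among the 47, and it was lower, at −1.06 [−1.67, −0.45], against 0.35% of all genes lower and 0.632% higher past 2-fold. That value rests on 37 reads in shSCR IgG, and with 5 reads added in place of 0.5 Ifit3 was not past 2-fold. Intervals lay above 0 for 19 members and below 0 for 11, against 29.4% and 20.9% of all genes, and the median was 0.03. The members with the highest differences were Ddx60 (0.92 [0.53, 1.32]), Stat2 (0.81 [0.55, 1.06]), Nlrc5 (0.67 [0.34, 1.01]) and Ddx58 (0.66 [0.47, 0.86]). The lowest after Ifit3 were Xaf1 (−0.72 [−1.10, −0.33]), Isg20 (−0.47 [−0.65, −0.28]) and Irf9 (−0.42 [−0.61, −0.24]). Isg20 and Irf9 are sums of rows that went in opposite directions. In shCerS4 and shSCR cells 1 Isg20 row stood at 0.03 and 0.85 for Caprin-1 over IgG, and another at 0.95 and 0.24. For Irf9, 1 row stood at −0.18 and 1.17 and another at 0.19 and −0.03. The difference of ratios also went with span, at a Spearman correlation of 0.55 among the members and 0.29 over all genes. The medians of the induced and the class I genes were −0.09 and 0.05.

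Some members were the sum of several rows of the table, which carry no transcript name. Of the members, 18 had more than 1 row and 8 had at least 2 rows with 20% or more of the gene's reads in some library. For Mavs, 1 row held 6.64 CPM in shCerS4 Caprin-1, 5.76 in shSCR Caprin-1, 1.03 in shCerS4 IgG and 26.3 in shSCR IgG, although the gene's sum was close in all. With the most abundant row alone, Mavs stood at −0.29 for shCerS4 over shSCR with Caprin-1 and 0.79 with IgG, each opposite in sign to the gene sum. For Ifnar2, 1 row held 72.8, 36.0, 43.7 and 26.4 CPM and another 20.1, 9.34, 29.3 and 15.1 CPM in the same order, so both were higher in shCerS4 cells in both precipitates. For Sting1, 1 row held 45.0, 48.4, 13.4 and 16.8 CPM and another 7.26, 16.9, 4.82 and 14.5 CPM, and the gap between the cell lines was wider in the second. How the authors shared reads among rows was not given in the sources used here, and gene sums were used for every ratio above.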

How the data were processed

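RNA from 4 precipitates of cultured cells, 1 library per group, was analysed. The build mm10 and the tools STAR and Partek are named in the submitters' processing notes, with no version or role, and the library was made from polyadenylated RNA, per the labels' protocols. The deposited table holds CPM per row, although the design had assumed counts, with 0.0001 added to each value and several rows per gene symbol. Rows were summed to symbols after that was subtracted. The reads behind 1 CPM were estimated from the spacing of low values. Under 40 CPM, between 80.3% and 81.7% of genes came out whole to within 0.05 reads. The lowest maximum of any row was 10.0 estimated reads. The 24393 rows gave 12967 symbols, of which 10283 had a mean of at least 5 CPM. Log2 ratios used library totals and 0.5 added reads. The 95% counting interval was the exact conditional binomial interval on rounded reads, and for the difference of ratios a normal approximation. No molecular identifiers are named in the labels, so intervals and floors (3 reads) cover counting error only. The calculation was tested on simulated data. Alternatives were TMM scaling (30% of ratios and 5% of abundances trimmed on each side) and median-of-ratios scaling, both written for this work, a filter of 1 CPM or none, 5 added reads and the most abundant row per symbol. Members given with all library values were those past 2-fold, the 2 with the highest CPM per role, all class I genes and others where a comparison turned on them, the last chosen after their values were seen. The members and lists were chosen with earlier results of these data known. A further gene of the wider interferon list is not reported here. Positions are from RefSeq on GRCm38.p6. Python 3.11.15, numpy 2.4.6, pandas 2.3.3, scipy 1.17.1 and matplotlib 3.10.9 were used.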

Additional observations from a re-analysis of the deposited data

Results flagged for a closer look

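Ddx58, which encodes the RNA sensor RIG-I, was the member whose shCerS4 over shSCR log2 ratio lay on opposite sides of 0 in the 2 precipitates, each with an interval that excluded 0. Its ratio was 0.42 [0.28, 0.56] with Caprin-1 and −0.24 [−0.38, −0.11] with IgG. Its levels were 36.8 CPM in shCerS4 Caprin-1, 27.5 CPM in shSCR Caprin-1, 42.1 CPM in shCerS4 IgG and 49.9 CPM in shSCR IgG. With 1 library per group the difference was not tested.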

How the results depend on the processing

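With 1 library per group, no library could be left out. No paired analysis was possible because each group has 1 library. The differences of medians between induced and class I genes kept their sign under each alternative run, including the added one without H2-K1 and H2-D1, which was chosen after seeing the data. Counts that moved by more than 1.5 times were as follows. Members past 2-fold for Caprin-1 over IgG in shCerS4 cells, 1 in the main setting, numbered 3 under TMM scaling, 2 under median-of-ratios scaling, 2 with no filter and 2 with the most abundant row. In the difference of ratios the 1 member became 0 with 5 added reads and 2 with the most abundant row. Between the Caprin-1 precipitates the 3 members became 5 with the most abundant row. With no filter, all genes past 2-fold numbered 2201 between Caprin-1 precipitates, 2418 between IgG precipitates, 1715 and 2468 for Caprin-1 over IgG in shCerS4 and shSCR cells and 768 for the difference, in place of 1152, 1134, 921, 1511 and 101, with more genes tested. The difference also gave 407 genes at 1 CPM and 452 with the most abundant row. No member past 2-fold in the main setting changed sign in that comparison under an alternative run. Mavs, at 0.24 in the difference of ratios, was past 2-fold in the other direction with the most abundant row, at −1.09. The low reads of Usp18, Rsad2, Ifit3, Mx1 and Mx2 in shSCR cells limit the precision of their ratios.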
